A study of Mus musculus with 8 samples.

Results

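Transforming growth factor β (TGF-β) is one of the most abundant growth factors stored in bone matrix. The 10 genes described here encode its 3 ligands (Tgfb1, Tgfb2 and Tgfb3), its 3 receptors (Tgfbr1, Tgfbr2 and Tgfbr3) and the 4 latent TGF-β-binding proteins (Ltbp1, Ltbp2, Ltbp3 and Ltbp4). They were found by gene symbol among the 47706 genes of the count table, where each had a single row. All 10 had enough counts to be tested, with between 930 and 36372 counts per sample. The study sequenced poly(A) RNA from primary calvarial osteoblasts, the bone-forming cells of the skull vault, taken from newborn mice. These cultures were differentiated for 7 days and then treated for 24 hours with parathyroid hormone (PTH, 4 samples) or with its vehicle, phosphate-buffered saline (4 samples). No gene was altered in either group, and all cultures were serum-starved before treatment. The sample labels call the differentiation adipogenic, whereas the methods describe osteogenic medium. The labels and methods do not say whether the samples came from separate preparations of cells, so p-values measure the spread between these samples, which may be technical.

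TGF-β is secreted in a latent form, in which the mature dimer stays bound to its own propeptide. Latent TGF-β-binding proteins attach this complex to the extracellular matrix, and integrins, proteases or thrombospondin release the active ligand. Active ligand binds the type II receptor, which recruits and phosphorylates the type I receptor, and the type I receptor then phosphorylates SMAD2 and SMAD3. In bone, TGF-β released by resorption recruits osteoblast progenitors, and signaling through the same receptors restrains late osteoblast differentiation.

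Total counts lay between 33605610 and 56090654 per PTH-treated sample and between 41618108 and 46757836 per vehicle-treated sample. PTH response genes followed the labels, since Tnfsf11 (RANKL) lay between 0.987 and 1.79 CPM (counts-per-million) with vehicle and between 115 and 157 CPM with PTH. The 11 osteoblast markers examined summed to between 86874 and 125506 CPM per sample, mostly from Col1a1, Col1a2 and Sparc. The 8 adipocyte markers summed to between 34.8 and 55.5 CPM. Macrophage markers were present, with all 10 above 0 counts in every sample and sums of 1041 to 1694 CPM with vehicle and 1627 to 2095 CPM with PTH. Lyz2 made up most of these sums (means of 914 and 1417 CPM). The medians of the 10 markers overlapped, at 33.2 to 57.8 CPM with vehicle and 49.6 to 54.4 CPM with PTH. Only vehicle sample 4 (57.8 CPM) reached the PTH range, since vehicle samples 1 to 3 had 44.5, 33.2 and 36.3 CPM. The log2 fold changes of the 10 macrophage markers were all positive, from 0.19 (Csf1r) to 0.86 (Tyrobp), with a median of 0.31. At an edgeR adjusted p under 0.05, 2 of the 10 were higher with PTH (20%, against 23.3% of all tested genes) and 8 did not pass. The 6 endothelial markers summed to at most 7.11 CPM, and Emcn among them had no count in any sample. The 6 chondrocyte markers summed to between 603 and 903 CPM with vehicle and between 677 and 909 CPM with PTH. At the same threshold, 3 of the 11 osteoblast genes were lower with PTH (27.3%, against 22.5% of all tested genes). These were Sp7 (log2 fold change -1.78), Dmp1 (-1.12) and Runx2 (-0.33), and the other 8 did not pass. Of the 5 chondrocyte genes tested, Acan (1.03) and Col2a1 (0.44) were higher (40%, against 23.3%) and 3 did not pass. Of the 7 adipocyte genes tested, Pparg (-1.50) was lower (14.3%, against 22.5%) and 6 did not pass. Of the 4 endothelial genes tested, Kdr (1.51) was higher (25%, against 23.3%), Tek (-0.49) was lower (25%, against 22.5%) and 2 did not pass. The part of these shifts in the results below was not tested. In bulk RNA, a change in the number of cells of a type cannot be told apart from a change in RNA per cell.

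PTH-treated cultures had higher levels of 4 of the 10 genes: the type I receptor gene Tgfbr1, the matrix-anchoring protein gene Ltbp1, the co-receptor gene Tgfbr3 and the ligand gene Tgfb3. The log2 fold changes of these genes were 0.81, 0.62, 0.29 and 0.20. None of the 10 was lower by edgeR's quasi-likelihood test at an adjusted p under 0.05, by the same test at an unadjusted p under 0.05 or by DESeq2. Over all 16736 tested genes, 23.3% were higher and 22.5% were lower, or 45.8% in either direction. The 10 genes had a median log2 fold change of 0.21 (all tested genes, -0.00081), and none of them changed by 1 or more on the log2 scale. For 4 of the 10, every PTH-treated sample lay apart from every vehicle-treated sample, and 43.0% of all tested genes showed such a separation.

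**Figure D1:**
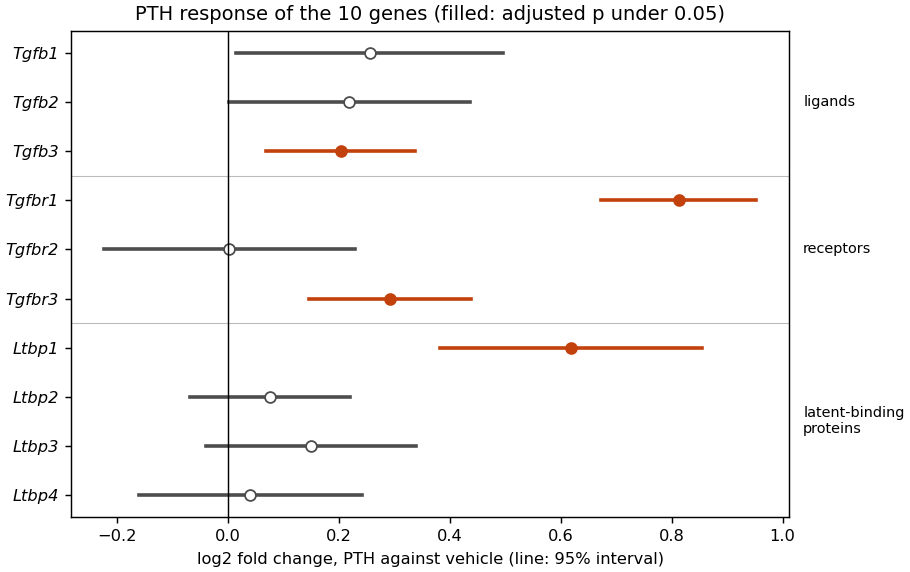
Log2 fold change of the 10 genes with PTH against vehicle (x axis), grouped by role (y axis); points are edgeR estimates from 4 against 4 samples and lines are 95% intervals. The intervals of Tgfbr1 (0.67 to 0.95) and Ltbp1 (0.38 to 0.85) lie farthest to the right, and that of Tgfbr2 (-0.22 to 0.23) is centred near 0.

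The promoters of the genes that rose most are shown here, because PTH raises cyclic AMP in osteoblasts and the factor CREB binds the cyclic AMP response element (CRE), spelled TGACGTCA. RefSeq start sites on GRCm38.p6 gave 12 promoter windows for 8 of the 10 genes, each running from 250 bases before to 50 bases after a transcript start. Tgfb3 and Tgfbr3 were not matched. Ltbp1 has an upstream start and a downstream start that lies 173252 bases further along the gene. LTBP-1 is known to be made in a long and a short form from separate starts, which counts per gene do not separate. The upstream window is chr17:75005279-75005578 on the plus strand, and capitals mark the full CRE:

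Ltbp1 upstream: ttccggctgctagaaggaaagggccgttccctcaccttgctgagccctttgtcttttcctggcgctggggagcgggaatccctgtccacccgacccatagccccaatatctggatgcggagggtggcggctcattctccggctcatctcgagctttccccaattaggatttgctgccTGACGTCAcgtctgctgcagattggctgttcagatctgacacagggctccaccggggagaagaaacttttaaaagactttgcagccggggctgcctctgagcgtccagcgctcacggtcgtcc

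The downstream window, chr17:75178531-75178830 on the plus strand, and the upstream window of Tgfbr1, chr4:47352972-47353271 on the plus strand, held no match to the CRE and so have no capitals:

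Ltbp1 downstream: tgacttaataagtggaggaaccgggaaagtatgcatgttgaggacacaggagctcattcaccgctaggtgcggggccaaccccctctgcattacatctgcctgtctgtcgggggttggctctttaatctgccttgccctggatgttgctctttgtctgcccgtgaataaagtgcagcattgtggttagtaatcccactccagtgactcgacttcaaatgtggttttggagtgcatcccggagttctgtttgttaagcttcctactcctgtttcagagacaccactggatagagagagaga

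Tgfbr1: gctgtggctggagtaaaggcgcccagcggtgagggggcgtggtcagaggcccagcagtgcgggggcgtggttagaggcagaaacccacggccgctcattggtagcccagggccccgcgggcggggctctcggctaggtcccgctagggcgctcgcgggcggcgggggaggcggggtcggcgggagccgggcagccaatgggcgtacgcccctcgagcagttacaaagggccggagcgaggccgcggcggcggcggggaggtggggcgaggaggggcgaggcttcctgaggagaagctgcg

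The CRE in the upstream Ltbp1 window, at chr17:75005456-75005463, begins 73 bases before the transcript start. It was the only full CRE in the 12 windows, and 1.79% of 32851 windows of all genes held one on either strand. A single match among so few windows does not show that these genes hold more CREs than others. The 5-base core TGACG, which a full CRE also contains, was found on either strand in 2 of the 12 windows, those of Tgfb2 and upstream Ltbp1, and in 20.8% of all windows. In the Tgfb2 window the core lies on the opposite strand, 72 bases before the start, and is printed in capitals:

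Tgfb2, chr1:186705940-186706239, minus strand: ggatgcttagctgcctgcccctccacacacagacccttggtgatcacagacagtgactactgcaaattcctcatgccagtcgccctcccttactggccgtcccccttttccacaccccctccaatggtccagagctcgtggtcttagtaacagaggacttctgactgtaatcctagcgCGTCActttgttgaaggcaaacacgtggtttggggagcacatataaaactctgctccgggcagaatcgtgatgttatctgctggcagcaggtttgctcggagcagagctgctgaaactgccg

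Of the other motifs searched on either strand, the AP-1 site TGANTCA occurred in 1 of the 12 windows (7.81% of all), the SMAD box CAGAC in 7 (49.6%) and the GC box GGGCGG in 6 (35.7%). The 12 windows are not all separate. Ltbp4 windows 2 and 3, with starts at 27333648 and 27333663, largely overlap, and every Ltbp4 window holds a GC box. A match of letters does not show that a factor binds there, and no binding was measured.

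Among the ligands, which are the secreted growth factors themselves, Tgfb3 rose modestly, and the estimates for Tgfb1 and Tgfb2 were of similar size with a wider spread. Tgfb3, on chromosome 12 from 86056745 to 86079041 (GRCm38, GENCODE M21, as for all gene positions here), had 225, 222, 223 and 221 CPM in vehicle samples 1 to 4. The PTH-treated samples had 240, 265, 270 and 250 CPM. All 4 PTH-treated samples were thus above the vehicle samples, which differed little among themselves (coefficient of variation 0.797%, against 5.26% with PTH). The log2 fold change of Tgfb3 was 0.20 (standard error 0.0613, edgeR adjusted p = 0.0171), or 15.1% more, and the exact permutation test gave a two-sided p = 0.0286, the smallest that 4 samples against 4 allow. The edgeR adjusted p of Tgfb3 was 0.0603 with the sample number as a replicate block and 0.0608 without the filter on low counts. It was 0.0652 without vehicle sample 2, 0.0508 without vehicle sample 3 and 0.0578 without PTH sample 3. On the opposite strand, Tgfb3 exons share 257 bases with Gm48008 and 163 bases with Gm37804.

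Tgfb1, the most widely expressed ligand gene, lies on chromosome 7 from 25687002 to 25705077. Its vehicle samples had 91.1, 90.1, 92.0 and 105 CPM, and its PTH-treated samples had 131, 91.7, 101 and 127 CPM. PTH samples 1 and 4 stood above all vehicle samples, while samples 2 and 3 fell within their range. The log2 fold change of 0.26 had a 95% interval of 0.01 to 0.50 and did not pass (edgeR adjusted p = 0.0783; exact permutation test, two-sided p = 0.200). Vehicle sample 4, which had the highest Tgfb1 level of its group, also had the highest sum of macrophage markers of its group (1694 CPM). With PTH the order differed, since sample 2 had the lowest Tgfb1 level and the highest macrophage sum (2095 CPM). Macrophages also express Tgfb1, and 2 of the 10 macrophage markers, Lyz2 and Tyrobp, were higher with PTH. The summed osteoblast markers ranked the samples as Tgfb1 did within both treatments. They had 96986, 92880, 101201 and 105348 CPM in vehicle samples 1 to 4. The sums in PTH samples 1 to 4 were 125506, 86874, 89804 and 108094 CPM. The part of macrophages or of osteoblast markers in the Tgfb1 level was not tested.

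Tgfb2, on chromosome 1 from 186622792 to 186705989, encodes the ligand that binds the type II receptor poorly without a co-receptor. It had 65.7, 64.6, 64.8 and 52.1 CPM with vehicle and 76.8, 59.2, 73.9 and 77.4 CPM with PTH. PTH samples 1, 3 and 4 were above all vehicle samples, and sample 2 lay between vehicle sample 4 and the rest. Its log2 fold change was 0.22 with a 95% interval of 0.00088 to 0.44 (edgeR adjusted p = 0.0944; exact permutation test, two-sided p = 0.114). Without PTH sample 2, both genes passed, with log2 fold changes of 0.35 for Tgfb1 (edgeR adjusted p = 0.0118) and 0.31 for Tgfb2 (edgeR adjusted p = 0.00930).

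**Figure D2:**
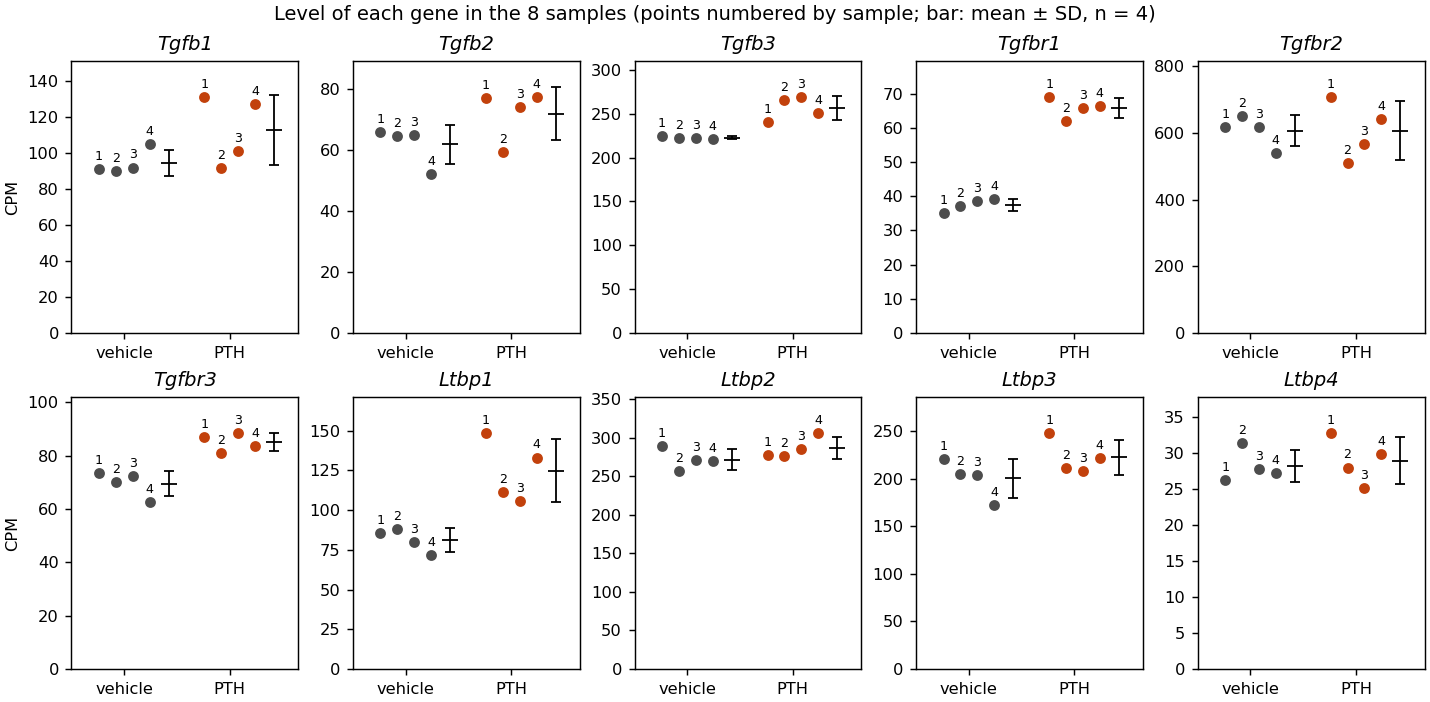
CPM (y axis, from 0) of each gene in the 4 vehicle-treated and 4 PTH-treated samples; points are samples with their numbers and bars are means ± SD (n = 4). Tgfb3, Tgfbr1, Tgfbr3 and Ltbp1 show no overlap between treatments, and for Tgfb1 the PTH samples spread from 91.7 to 131 CPM.

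The receptors responded unequally. Tgfbr1, the type I receptor kinase that phosphorylates SMAD2 and SMAD3, lies on chromosome 4 from 47353222 to 47414931. Vehicle samples 1 to 4 had 35.3, 37.1, 38.5 and 39.2 CPM, and PTH samples 1 to 4 had 69.3, 62.0, 65.8 and 66.5 CPM. The lowest PTH sample was far above the highest vehicle sample, and the spread within each treatment was narrow (coefficient of variation 4.66% with vehicle and 4.51% with PTH). Tgfbr1 rose 1.76-fold, a log2 fold change of 0.81 (standard error 0.0642, edgeR adjusted p = 7.46e-07; exact permutation test, two-sided p = 0.0286). It passed in all 8 fits that each left out 1 sample, with a log2 fold change between 0.78 and 0.85. Over the 8 samples, the genes whose log2 CPM followed Tgfbr1 most closely among the 14071 genes averaging 1 CPM or more were Dnajb6, Tbc1d22b and Mxi1 (Pearson r of 0.9987, 0.9986 and 0.9986). Such values mostly reflect the shared difference between treatments, and 1080 genes had an r above 0.95.

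Tgfbr2, which encodes the type II receptor that binds ligand and starts signaling, lies on chromosome 9 from 116084293 to 116175360. It had 619, 650.2, 617 and 540.0 CPM with vehicle and 709.6, 509, 568 and 643 CPM with PTH. The PTH samples covered a range on both sides of the vehicle samples. The log2 fold change was 0.0022 (95% interval -0.22 to 0.23, edgeR adjusted p = 0.988; exact permutation test, two-sided p = 0.971), so a change beyond those bounds in either direction lies outside the interval, but smaller changes do not. Its sign was not stable, with values between -0.08 and 0.09 when each sample was left out. Stretches of 150 to 171 bases in its exons matched 9 other genes with an identity of 95% or more, so some of its reads may be shared.

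Tgfbr3, on chromosome 5 from 107106570 to 107289629, encodes betaglycan, the co-receptor that presents TGF-β2 to the type II receptor. Its levels were 73.4, 69.98, 72.2 and 62.6 CPM with vehicle and 87.1, 81.1, 88.7 and 83.6 CPM with PTH. Each PTH sample was higher than each vehicle sample. The log2 fold change was 0.29 (standard error 0.0670, edgeR adjusted p = 0.00362; exact permutation test, two-sided p = 0.0286), or 22.4% more, and lay between 0.24 and 0.32 with each sample left out. In the annotation Tgfbr3 shares its locus with Gm43422, whose counts did not exceed 4 in a sample.

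The level of Tgfbr2 relative to Tgfbr1 did not overlap between treatments. Per kilobase of exon, the level of Tgfbr2 was 12.9 ± 1.42 times that of Tgfbr1 with vehicle (SD, n = 4) and 7.34 ± 0.746 times with PTH. The lowest vehicle ratio was 10.99 and the highest PTH ratio was 8.18. Tgfbr1 accounted for 6.38% ± 0.694 of the summed per-length level of the 3 receptor genes with vehicle and 10.4% ± 0.771 with PTH. These ratios are descriptions and were not tested.

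Of the latent TGF-β-binding proteins, Ltbp1 rose and the others did not pass the test. LTBP-1, on chromosome 17 from 75005568 to 75392512, binds the propeptide covalently and carries the latent complex to fibronectin and fibrillin fibers. Its gene had 85.7, 88.3, 79.9 and 71.5 CPM with vehicle and 149, 112, 106 and 133 CPM with PTH. The treatments did not overlap, although the PTH samples were more spread out (coefficient of variation 15.9%, against 9.19% with vehicle). Ltbp1 rose 1.53-fold, a log2 fold change of 0.62 (standard error 0.108, edgeR adjusted p = 5.90e-04; exact permutation test, two-sided p = 0.0286). It passed in all 8 fits that left out a sample, with values between 0.52 (without PTH sample 1) and 0.69.

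The 3 other genes of this group had estimates closer to 0. Ltbp3, on chromosome 19 from 5740904 to 5758532, encodes a form that also binds latent TGF-β covalently and is needed for normal bone growth. It ranged from 172 to 221 CPM with vehicle and from 208 to 248 CPM with PTH, and its log2 fold change was 0.15 (95% interval -0.04 to 0.34, edgeR adjusted p = 0.181). Ltbp2, on chromosome 12 from 84783212 to 84876532, encodes the form that does not bind latent TGF-β. Its levels ranged from 257 to 289.9 CPM with vehicle and from 277 to 307 CPM with PTH, and the log2 fold change was 0.08 (95% interval -0.07 to 0.22, edgeR adjusted p = 0.380). Ltbp2 exons share 764 bases, the widest overlap in the family, with the antisense gene D030025P21Rik, which had at most 47 counts in any sample. Ltbp4, on chromosome 7 from 27305136 to 27337692, encodes a form that binds latent TGF-β1 weakly and organizes elastic fibers. It ranged from 26.2 to 31.4 CPM with vehicle and from 25.2 to 32.8 CPM with PTH (log2 fold change 0.04, 95% interval -0.16 to 0.24, edgeR adjusted p = 0.750). The strand setting of the counts is not given in the sources used here, so reads of overlapping genes on opposite strands may not be separated.

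Levels of different genes can be compared only per length, and they are given here as CPM per kilobase of annotated exon. With vehicle, the order from high to low was Tgfbr2 (74.1 ± 5.73, SD, n = 4), Tgfb3 (65.8 ± 0.525), Ltbp2 (33.2 ± 1.67), Ltbp3 (22.1 ± 2.25), Tgfb1 (18.8 ± 1.40), Tgfb2 (10.7 ± 1.11), Tgfbr3 (10.6 ± 0.740), Ltbp1 (7.61 ± 0.699), Tgfbr1 (5.74 ± 0.268) and Ltbp4 (4.36 ± 0.348). The highest and lowest levels differed 17.0-fold. Among the 9 pairs of neighbours in this order, 3 overlapped between samples: Tgfbr2 with Tgfb3, Ltbp3 with Tgfb1, and Tgfb2 with Tgfbr3. With PTH, Tgfb3 (75.8 ± 3.98) and Tgfbr2 (74.2 ± 10.7) again overlapped, and so did 4 other pairs, all from Ltbp3 with Tgfb1 down to Ltbp1 with Tgfbr1 except Tgfb1 with Tgfbr3. The level of Ltbp1 rose to 11.7 ± 1.86 and that of Tgfbr1 to 10.1 ± 0.455, which narrowed their distance to Tgfb2 (12.4 ± 1.48) and Tgfbr3 (13.0 ± 0.525).

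**Figure D3:**
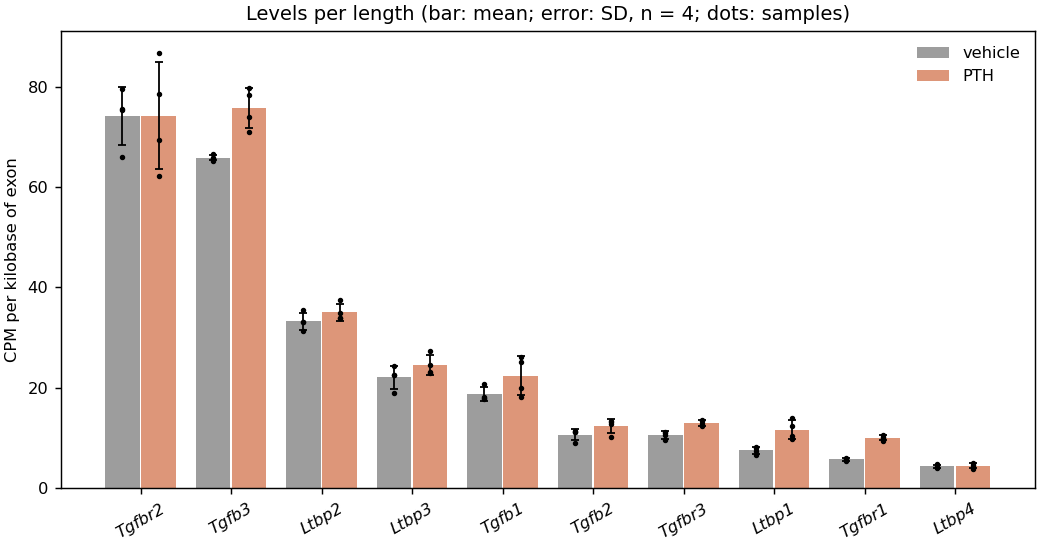
CPM per kilobase of exon (y axis, from 0) of the 10 genes, ordered by their vehicle level; bars are means, error bars are SD (n = 4) and dots are samples. Tgfbr2 and Tgfb3 lie highest with either treatment, and Tgfbr1 and Ltbp1 show the tallest step between the bars for their size.

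Tgfb3 made up most of the ligand transcripts in these cultures. Its share of the summed per-length level of the 3 ligand genes was 69.1% ± 0.350 with vehicle and 68.6% ± 4.25 with PTH. Tgfb1 held 19.7% ± 1.49 and 20.2% ± 3.28, and Tgfb2 held 11.2% ± 1.16 and 11.2% ± 1.13. The annotated exons of Tgfb1 span 5042 bases over 5 transcripts, whereas its longest transcript has 2573 bases, and with the longest transcript as the length the Tgfb1 share was 32.0% with vehicle and 32.7% with PTH. Tgfb3 was still the highest of the 3 on that scale, with 57.4% and 56.8%. Within the latent-binding group, the share of Ltbp1 was 11.3% ± 0.726 with vehicle and 15.4% ± 1.55 with PTH, and the ranges (10.6% to 12.3% and 13.8% to 17.3%) did not overlap. Summed over their genes, the latent-binding proteins had 0.707 ± 0.0358 times the per-length level of the ligands with vehicle. With PTH it was 0.685 ± 0.0390 times, a difference smaller than the SD of either treatment. Ltbp2, whose protein does not bind latent TGF-β, made up 49.4% of that sum with vehicle and 46.3% with PTH. The ratio therefore does not describe only genes whose proteins bind latent TGF-β, and it was computed with annotated exon lengths only.

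Most of the 10 genes ranked the PTH-treated samples alike. In 7 of the 10 genes (Tgfb1, Tgfb2, Tgfbr1, Tgfbr2, Ltbp1, Ltbp3 and Ltbp4), PTH samples 1 and 4 both lay above samples 2 and 3. Tgfb3 showed the reverse order. Among all tested genes, 25.2% had the first order and 27.0% the reverse. The summed osteoblast markers ran the same way, with 125506, 86874, 89804 and 108094 CPM in PTH samples 1 to 4, and so did the total counts, with 56090654, 33605610, 39559897 and 43965864. Sums of the macrophage markers (1627, 2095, 2013 and 1799 CPM) and adipocyte markers (35.7, 54.9, 51.6 and 34.8 CPM) ran the opposite way. Lyz2 made up most of the macrophage sum (mean 1417 CPM with PTH). The median of the 10 macrophage markers did not follow that sum, with 50.1, 54.4, 49.6 and 54.2 CPM in PTH samples 1 to 4. The part of these markers and of the total counts in this order was not tested, and the order was noticed after the values were seen. Among the vehicle samples, sample 4 had the lowest level of Tgfb2, Tgfb3, Tgfbr2, Tgfbr3, Ltbp1 and Ltbp3 and the highest of Tgfb1 and Tgfbr1. Without vehicle sample 4, the log2 fold changes were 0.31 for Tgfb1, 0.14 for Tgfb2, 0.83 for Tgfbr1 and 0.56 for Ltbp1.

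**Figure D4:**
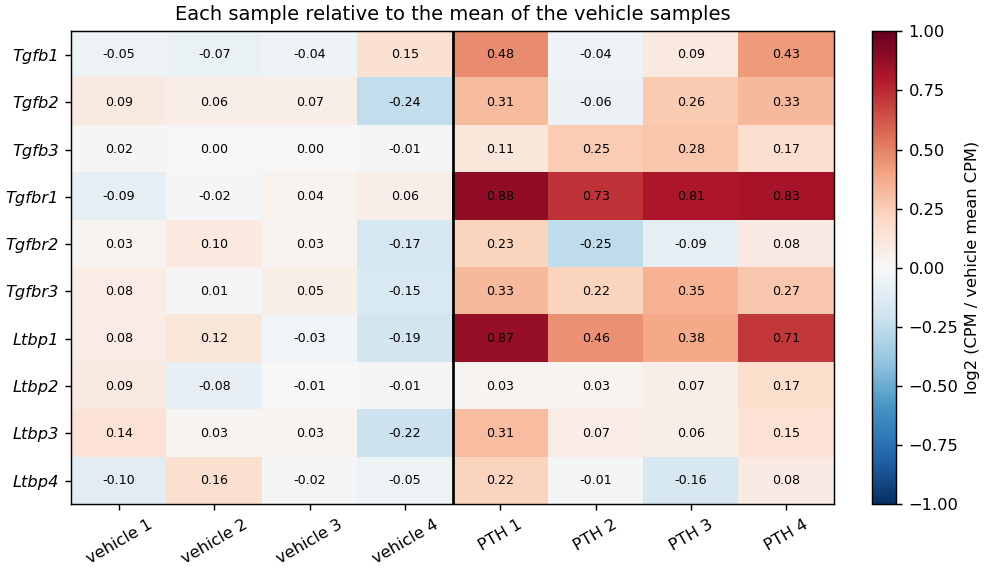
Log2 ratio of each sample's CPM to the mean of the 4 vehicle samples (color and printed number), with genes in rows and samples in columns. Tgfbr1 is at 0.73 or more in every PTH sample, Ltbp1 ranges from 0.38 to 0.87, and among the PTH samples Tgfb1 and Tgfbr2 are highest in sample 1 and lowest in sample 2.

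To place the 10 genes in their pathway, 4 lists of other TGF-β genes were examined in the same fit. Of 22 tested genes that process, hold or activate latent TGF-β, 6 were higher (27.3%, against 23.3% of all tested genes) and 1 was lower (4.55%, against 22.5%) with PTH (median log2 fold change 0.17). The largest increase was that of Lrrc32, which encodes GARP, a membrane protein that tethers latent TGF-β to the cell surface. Lrrc32 had 21.1, 19.7, 21.2 and 16.5 CPM with vehicle and 321, 234, 216 and 267 CPM with PTH, with no overlap (log2 fold change 3.72, edgeR adjusted p = 5.23e-10). Itgb8, a subunit of an integrin that activates latent TGF-β, rose from 3.85 ± 0.328 to 11.01 ± 1.83 CPM (log2 fold change 1.52, edgeR adjusted p = 3.43e-06). Plau, the urokinase gene of the plasmin system, rose from 45.9 ± 5.20 to 96.9 ± 3.78 CPM (log2 fold change 1.08, edgeR adjusted p = 4.65e-07). Thbs1, encoding thrombospondin-1, which can activate the latent complex, fell from 8289 ± 608 to 5240 ± 583 CPM (log2 fold change -0.66, edgeR adjusted p = 2.89e-04). Fbn1 and Fn1, whose proteins anchor the latent-binding proteins in matrix, had log2 fold changes of 0.20 and 0.17 and did not pass (edgeR adjusted p = 0.115 and 0.119). Fn1 nevertheless did not overlap, with 3915 to 4226 CPM with vehicle and 4278 to 4898 CPM with PTH, whereas Fbn1 did. Neither gene is among the largest called changes of the list. Without PTH sample 1, 5 genes of this list were lower.

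Among 19 genes that act on the ligands or receptors, 4 were higher (21.1%, against 23.3% of all tested genes) and 8 were lower (42.1%, against 22.5%), with a median of -0.19. Pmepa1 (log2 fold change 1.09, edgeR adjusted p = 1.28e-06) and Smurf2 (0.75, edgeR adjusted p = 1.30e-06) had the largest increases, followed by Strap (0.51, edgeR adjusted p = 1.35e-04). These genes encode proteins known to restrain the pathway, SMURF2 as a ubiquitin ligase that targets the type I receptor. Smurf1, which encodes a related ligase, was lower (-0.28, edgeR adjusted p = 0.0101) and is named here after its value was seen. The largest decreases were those of Acvrl1 (-0.52, edgeR adjusted p = 2.42e-04), an alternative type I receptor gene, Vasn (-0.51, edgeR adjusted p = 0.00130), a ligand trap, and Usp15 (-0.46, edgeR adjusted p = 0.00143), a deubiquitinase that stabilizes the type I receptor.

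Of 13 tested genes of the SMAD pathway, 5 were higher (38.5%, against 23.3% of all tested genes) and 4 were lower (30.8%, against 22.5%), with a median of -0.0021. The substrates of TGFBR1 moved in opposite directions. Smad3 rose from 99.5 ± 2.60 to 376 ± 57.6 CPM (log2 fold change 1.92, edgeR adjusted p = 1.81e-08), and Smad2 fell from 40.8 ± 3.57 to 31.0 ± 2.48 CPM (-0.40, edgeR adjusted p = 0.00226). Skil (log2 fold change 1.06, edgeR adjusted p = 3.32e-07) and Smad7 (0.42, edgeR adjusted p = 0.00166), which are feedback inhibitors, rose. The corepressor genes Tgif2 (-1.37, edgeR adjusted p = 2.51e-05) and Ski (-0.47, edgeR adjusted p = 4.73e-04) fell. Tgif1, a related corepressor gene also named after its value was seen, was higher (0.27, edgeR adjusted p = 0.0260).

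Of 25 genes known to respond to TGF-β in mesenchymal cells, 11 were higher (44%, against 23.3% of all tested genes) and 5 were lower (20%, against 22.5%), with a median of 0.12. Without vehicle sample 2, 3 were lower. Ltbp2 is one of the 25, and Fn1, Pmepa1, Skil and Smad7 are in a list above as well. The largest increases were those of Junb (log2 fold change 4.06, edgeR adjusted p = 1.50e-11), Bhlhe40 (3.26, edgeR adjusted p = 5.69e-10) and Snai1 (2.17, edgeR adjusted p = 2.74e-09), which encode transcription factors that other signals also induce. Snai2, a related factor gene, fell by 2.45 on the log2 scale (edgeR adjusted p = 4.31e-10). Ccn2, a matricellular target that the table lists as Ctgf, fell from 132 ± 7.61 to 37.9 ± 4.99 CPM (log2 fold change -1.80, edgeR adjusted p = 1.64e-08), and the cell cycle inhibitor gene Cdkn2b had a log2 fold change of -0.68 (edgeR adjusted p = 7.69e-06). Tgfbi (1.60), named after its value was seen because it is a classical TGF-β target, was higher, whereas Col1a1 (0.12) and Col1a2 (0.01) did not pass. Acta2 (-0.31, edgeR adjusted p = 0.0172) and Lox (-0.37, edgeR adjusted p = 0.0189), also named after their values were seen, were lower.

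**Figure D5:**
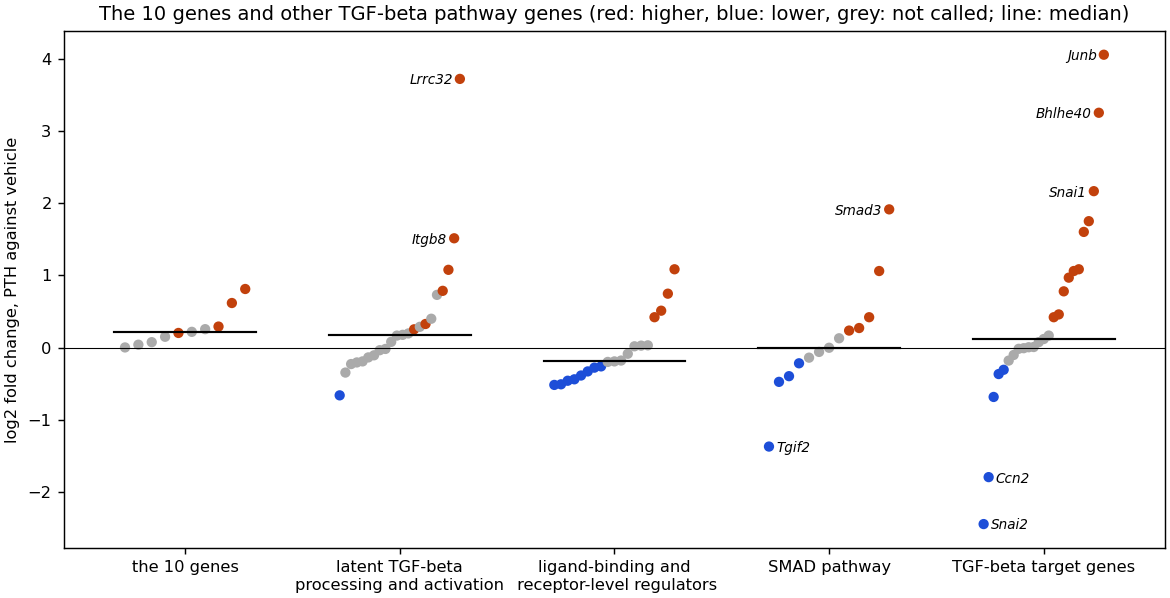
Log2 fold change with PTH against vehicle (y axis) of each tested gene in the 10-gene family and in 4 lists of other TGF-β genes (x axis), with genes sorted within each list. Points are single genes, colored by the edgeR call, and black lines are medians; the family spans 0.0022 to 0.81, while Lrrc32 (3.72), Junb (4.06) and Snai2 (-2.45) lie far outside that span.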

How the data were processed

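RNA sequencing of 8 samples was analysed from 1 deposited table of counts. Per the methods and labels, the authors mapped reads with HISAT2 to GRCm38, built transcripts by StringTie2 and deposited whole-number counts per gene that its companion script estimates from transcript coverage, without normalization. Annotation version and strand setting are not given in the sources used here. Groups came from sample titles. Counts were normalized by TMM in edgeR 4.0.16 (R 4.3.3), filtered by filterByExpr (minimum count 10, minimum total 15), and compared by the two-sided quasi-likelihood F-test with Benjamini-Hochberg adjustment over 16736 genes (threshold 0.05). Standard errors are the log2 fold change divided by the square root of F. Each of the 10 genes also had an exact permutation test of log2(CPM + 0.1) over 70 assignments, without adjustment. Positions and exon lengths come from GENCODE M21 (GRCm38), all 10 genes matching by symbol, promoters from RefSeq, and transcript similarity from blastn 2.17.0. The edgeR and DESeq2 1.42.0 steps were tested on simulated data. The genes, lists and naming rule were chosen with earlier results of these data known: all 10 genes, the 3 largest called changes each way per list with a mean of at least 1 CPM, Tnfsf11 as a check, and the 3 genes most correlated with the member that rose most (no member fell). Pth1r was the other check of the labels and was lower with PTH. Alternatives were DESeq2, its size factors, no filter, a replicate block, leaving out each sample, halved counts, sums by symbol, the longest transcript as length, a pseudocount of 1 and, added after the data were seen, an offset for gene length. Samples of the same number were not treated as paired, since their deviations from the group means correlated between -0.041 and 0.027 across genes. Protein sequences were not used here. Some genes are not reported here.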

Additional observations from a re-analysis of the deposited data

Results flagged for a closer look

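Within each treatment, 4 of 64 sets of 4 samples, from the 10 genes and the named pathway genes, held 1 sample far from the other 3, about as many as chance gives (1 in 20). Vehicle sample 4 stood apart in 2 of them, with 105.1 CPM of Tgfb1 where the next sample had 92.0, and 52.15 CPM of Tgfb2 where the next had 64.6. Vehicle sample 1 had 95.67 CPM of Smad3, below the next at 100.4. PTH sample 3 had 17.8 CPM of Smad7, below the next at 20.5. Neither Tgfb1 nor Tgfb2 passed the test without vehicle sample 4.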

How the results depend on the processing

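Over 15 alternatives for each of the 10 genes, 137 of 150 log2 fold changes kept their direction and their side of the threshold. Tgfbr1, Tgfbr3 and Ltbp1 passed under all 15. The number of higher genes among the 10 lay between 3 and 6, with 3 under the replicate block, without the filter on low counts and without vehicle sample 2 or 3 or PTH sample 3 (Tgfb3 was lost), and 6 without PTH sample 2 (Tgfb1 and Tgfb2 were gained). The number of lower genes was 0 under each. Estimates of genes that did not pass changed sign: Tgfbr2 was -0.030 without the filter and -0.0055 under the replicate block, and with each sample left out it lay between -0.083 and 0.089. It was -0.051 without vehicle sample 4 and -0.028 without PTH sample 4. Ltbp4 lay between -0.028 (without PTH sample 1) and 0.10 with each sample left out. The causes were not tested. The replicate block changed no other call among the 10. With each sample left out, lower genes numbered 1 to 5 for latent TGF-β activation (5 without PTH sample 1) and 3 to 6 for target genes (3 without vehicle sample 2). All 330 alternatives for the named pathway genes kept their call. With the longest transcript as length, 16 of 20 levels moved by more than 1 SD, and Tgfb1 and Ltbp1 ranked higher. The offset for gene length and a pseudocount of 1 changed no call among the 10.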
